A study of Mus musculus with 31 samples.

Results

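The lysyl oxidase family comprises 5 genes in the mouse, Lox, Loxl1, Loxl2, Loxl3 and Loxl4, and was taken by gene symbol from RNA sequencing of mesothelioma grown at 3 body sites. All 5 had an entry among the 54456 genes of the whole tumour table and among the 12444 genes of the sorted cell table. Every group consisted of tumours of AB1-mCherry, a murine mesothelioma line carrying a red fluorescent protein, taken on day 10 after inoculation from untreated female BALB/c mice aged 12 weeks. The inoculated cells were a pool of the line's brightest fluorescent cells, expanded in culture. Whole tumours came from the pleural (n = 6), peritoneal (n = 5) and subcutaneous (n = 5) space. Sorted cells, gated for mCherry and against CD45 and called cancer cells in the labels, came from pleural, peritoneal and subcutaneous tumours (n = 5 each). The 31 libraries carry 17 mouse numbers in the labels, and 14 of these mice gave both a whole tumour and a sorted cell library. Different RNA kits served whole tumours and sorted cells.

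Lysyl oxidases are secreted, copper-dependent amine oxidases that convert lysine and hydroxylysine side chains of collagen and elastin into reactive aldehydes, which then form covalent crosslinks between fibres. Lox and Loxl1 are made with a propeptide that Bmp1-type proteases remove, whereas Loxl2, Loxl3 and Loxl4 carry scavenger receptor cysteine-rich domains before the shared catalytic domain. In solid tumours fibroblasts and cancer cells both secrete these enzymes, and the family is known for stiffening tumour matrix.

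The members resemble each other most in the catalytic domain. A 45-base coding stretch around the longest run that Loxl2 and Loxl3 share is shown for 4 members. No pair of these 4 shared an identical coding run as long as the 50-base reads. The stretch thus shows likeness and not a source of shared reads. Capitals mark the 29 of 45 bases that are identical in all 4, read 5′ to 3′ on the coding strand from GENCODE transcripts on GRCm38.
Loxl1: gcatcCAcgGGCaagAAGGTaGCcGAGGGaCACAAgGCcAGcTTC
Loxl2: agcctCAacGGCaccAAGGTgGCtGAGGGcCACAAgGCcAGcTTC
Loxl3: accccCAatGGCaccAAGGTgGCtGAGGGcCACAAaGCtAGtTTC
Loxl4: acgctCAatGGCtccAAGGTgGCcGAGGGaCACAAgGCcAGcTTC
The Loxl1 stretch lies at chr9:58293639-58293683 on the minus strand, in exon 4 of 7. The Loxl2 stretch lies at chr14:69689071-69689115 on the plus strand, in exon 11 of 14. The Loxl3 stretch lies at chr6:83050159-83050203 on the plus strand, in exon 11 of 14, and the Loxl4 stretch at chr19:42598729-42598773 on the minus strand, in exon 12 of 15. Loxl3 and Loxl4 each match Loxl2 at 39 of the 45 bases, and Loxl1 at 33. The longest identical coding run between Loxl2 and Loxl3 was 26 bases, shorter than the 50-base reads. Among all pairs of members the longest was 32 bases, between Lox and Loxl1, which is not shown. Across whole transcripts 9 of the 10 pairs of members shared no 31-base word, and Lox and Loxl1 shared 2 of 4748 and 3267 words.

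Values are TPM, transcript levels scaled to gene length and to the library's total, which allows genes to be compared within a library. The number of reads behind each value is unknown, so no counting interval can be given. Differences are log2 fold changes (log2FC) on the log2(TPM + 1) scale, which understates the change of genes near or below 1 TPM. They were tested with limma, and a gene was called at an adjusted p below 0.05 over all genes tested. In the sorted cells the mesothelioma antigen gene Msln measured 150 to 316 TPM, while Wt1, Upk3b and 9 other genes of a 14-gene mesothelial list had no entry in that table. The leukocyte gene Ptprc (CD45) measured 12.9 and 7.48 TPM in subcutaneous sorted replicates 1 and 2 and at most 2.05 TPM in every other sorted library. Among whole tumours, pleural replicate 3 stood apart, with 863 TPM of Col1a1 against 285 to 630 TPM in the other pleural tumours, and pleural replicate 5 held 248 TPM of the skeletal muscle actin Acta1. Many tests of the family are given with and without some or all of these libraries, and so are many, but not all, counts of list genes. Sums, shares, ratios and correlations of the family were computed with all libraries only.

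In sorted cancer cells, the transcripts of Lox and Loxl2 were lower at the pleural and peritoneal sites than under the skin. Those of Loxl3 and Loxl4 passed no test. Loxl1 fell in peritoneal cells. Among pleural cells, Loxl3 (46.4 ± 8.22 TPM, SD, n = 5) and Loxl1 (29.0 ± 3.84 TPM) were the most abundant members, followed by Loxl4, Lox and Loxl2. Peritoneal cells had the same order. In subcutaneous cells Lox (15.5 ± 5.96 TPM) stood before Loxl4 (12.5 ± 0.68 TPM), with overlapping ranges, and Loxl2 remained the lowest at 6.99 ± 2.48 TPM. The ranges of neighbours in the order also overlapped for Lox and Loxl2 in pleural and in peritoneal cells, and for no other neighbours in the sorted cells.

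**Figure D1:**
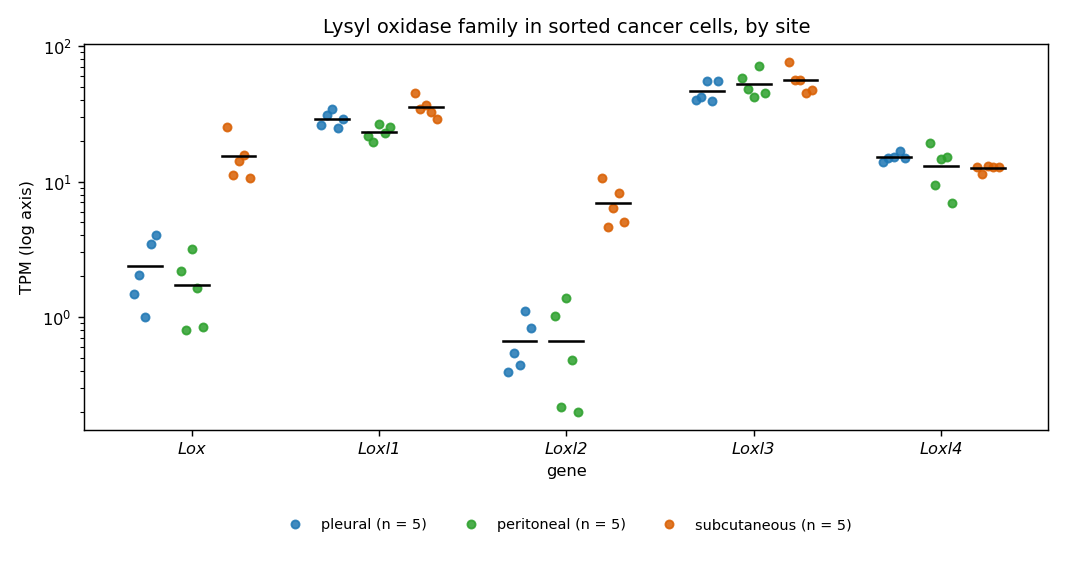
Levels of the 5 lysyl oxidase genes in sorted cells, in TPM on a log axis. Each point is a library, each bar a group mean, and pleural, peritoneal and subcutaneous cells (n = 5 each) run left to right; the Lox and Loxl2 points of pleural and peritoneal cells all lie below those of subcutaneous cells.

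Lox, the founding member, measured 1.47, 2.04, 0.995, 3.44 and 4.04 TPM in the pleural sorted libraries. In the peritoneal libraries it measured 2.19, 0.801, 3.18, 1.63 and 0.848 TPM, and in the subcutaneous libraries 25.4, 11.2, 14.2, 15.8 and 10.6 TPM. Every subcutaneous library lay above every pleural and every peritoneal library, and subcutaneous replicate 1 was the highest. Against subcutaneous cells, Lox fell by 2.30 on the log2 scale in pleural cells (SE 0.30, 95% interval -2.93 to -1.66, adjusted p = 0.000293). In peritoneal cells it fell by 2.60 (SE 0.30, 95% interval -3.24 to -1.97, adjusted p = 5.51e-05). The subcutaneous mean in TPM was 6.45 times the pleural mean and 8.94 times the peritoneal mean. In sorted pools as in whole tumours, fewer cells that express a gene and less RNA per cell cannot be told apart.

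Loxl2, which besides fibrillar collagen also acts on basement membrane collagen, measured 0.390, 0.546, 0.439, 1.10 and 0.832 TPM in the pleural sorted libraries. The peritoneal libraries had 1.02, 0.218, 1.39, 0.479 and 0.199 TPM, and the subcutaneous libraries had 10.6, 4.61, 6.40, 8.25 and 5.06 TPM. The groups were again separate, and both Lox and Loxl2 were highest in subcutaneous replicate 1. Loxl2 fell by 2.23 on the log2 scale in pleural cells (SE 0.23, 95% interval -2.72 to -1.74, adjusted p = 2.83e-05) and by 2.27 in peritoneal cells (SE 0.23, 95% interval -2.76 to -1.78, adjusted p = 1.63e-05). The subcutaneous mean in TPM was 10.6 times both the pleural mean and the peritoneal mean. Loxl2 reached 1 TPM in 8 sorted libraries, the 5 subcutaneous ones, 1 pleural and 2 peritoneal. The subcutaneous libraries alone were thus enough for it to pass the filter on low values. A gene that passes in this way was picked through the group where it is high, which favours a difference but does not force one.

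Loxl1, the member tied to elastic fibre maintenance in mice, measured 26.2, 31.1, 34.3, 24.7 and 28.9 TPM in pleural, 21.6, 19.5, 26.4, 22.7 and 25.3 TPM in peritoneal, and 44.8, 34.2, 37.0, 32.8 and 28.9 TPM in subcutaneous sorted libraries. Peritoneal and subcutaneous values did not overlap, while pleural values reached into the subcutaneous range. Loxl1 fell by 0.59 in peritoneal cells (SE 0.12, 95% interval -0.85 to -0.33, adjusted p = 0.00675). In pleural cells its log2FC was -0.28 (SE 0.12, 95% interval -0.54 to -0.02, adjusted p = 0.402).

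Loxl3, needed for palate and spine development in mice, measured 40.2, 42.1, 55.2, 39.1 and 55.5 TPM in pleural, 57.9, 48.1, 42.1, 71.4 and 44.7 TPM in peritoneal, and 76.9, 55.8, 55.8, 45.0 and 47.0 TPM in subcutaneous sorted libraries. The 3 sites overlapped. Its log2FC was -0.26 for pleural (95% interval -0.61 to 0.09, adjusted p = 0.649) and -0.09 for peritoneal against subcutaneous cells (95% interval -0.44 to 0.27, adjusted p = 0.764). Loxl4 measured 14.0, 14.8, 15.1, 16.7 and 15.0 TPM in pleural, 19.1, 9.45, 14.7, 15.1 and 6.97 TPM in peritoneal, and 12.8, 11.3, 13.04, 12.8 and 12.7 TPM in subcutaneous sorted libraries. All pleural values lay above all subcutaneous ones, by a small margin, and the peritoneal values spread to both sides of them. The log2FC of Loxl4 was 0.25 in pleural (95% interval -0.15 to 0.65, adjusted p = 0.729) and -0.02 in peritoneal cells (95% interval -0.42 to 0.38, adjusted p = 0.957).

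Counted over the family, 2 of 5 members fell in pleural against subcutaneous sorted cells, where 1.64% of all genes tested were called and 1.25% were called lower. In peritoneal against subcutaneous cells 3 of 5 fell, where 11.1% of all genes were called and 6.33% were called lower. Both counts include Loxl2, which passed the filter on low values through the subcutaneous libraries. Of the other 4 members 1 fell in pleural and 2 fell in peritoneal cells. Groups that did not overlap were found for 3 of 5 members in pleural against subcutaneous cells (Lox and Loxl2 lower, Loxl4 higher), against 3.11% of all genes. In peritoneal against subcutaneous cells they were found for 3 of 5 (Lox, Loxl1 and Loxl2, all lower), against 9.48%. Both comparisons use the same 5 subcutaneous libraries. Between pleural and peritoneal cells limma called 0 of 5 members and 9.96% of all genes. At an unadjusted p below 0.05 it gave 1 member, Loxl1 (log2FC 0.31, 95% interval 0.06 to 0.57, adjusted p = 0.106). The interval for Lox was -0.33 to 0.94 and that for Loxl2 -0.45 to 0.53, so these libraries leave room for differences of that size.

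Without subcutaneous sorted replicates 1 and 2, the libraries with the most Ptprc, Lox had a log2FC of -2.17 in pleural (adjusted p = 0.00304) and -2.47 in peritoneal cells (adjusted p = 0.00055). Loxl2 had -2.18 (adjusted p = 0.000183) and -2.22 (adjusted p = 0.000105), and Loxl1 in peritoneal cells -0.49 (adjusted p = 0.0349). The values of these genes were thus nearly as large without those libraries. Subcutaneous replicate 3, with 0.34 TPM of Ptprc, had 14.2 TPM of Lox and 6.40 TPM of Loxl2. That library also held 36.9 TPM of the fibroblast surface gene Thy1. The part of leukocytes or other host cells in these differences was not tested.

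**Figure D2:**
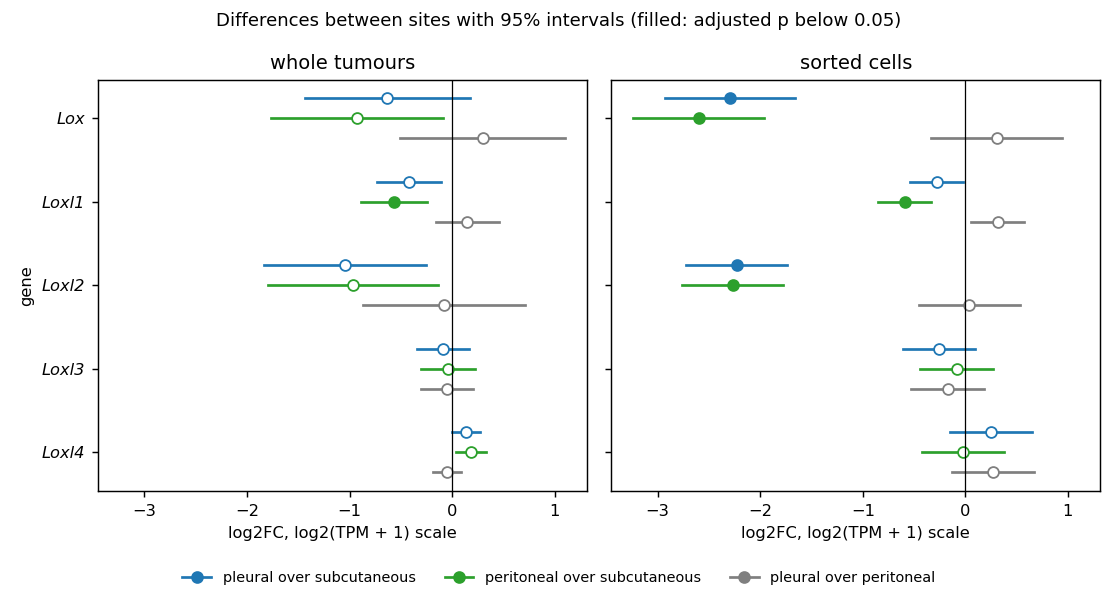
Differences between sites for the 5 genes in whole tumours (left) and sorted cells (right), as log2FC on the log2(TPM + 1) scale with 95% intervals; filled points passed an adjusted p below 0.05. In sorted cells Lox and Loxl2 sit between -2.23 and -2.60 against subcutaneous cells, while Loxl3 and Loxl4 have intervals that cross 0.

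In whole tumours, which hold host stroma and leukocytes beside cancer cells, all members had a value above 0 in every library. Loxl1 fell in peritoneal against subcutaneous tumours, and no other member passed the test between any sites. The 2 tables were normalised separately and were not tested against each other. Mean levels in pleural tumours were 55.2 ± 16.9 TPM for Loxl1, 48.8 ± 10.7 for Loxl3, 32.1 ± 25.3 for Lox, 12.3 ± 1.12 for Loxl4 and 9.67 ± 8.30 for Loxl2 (SD, n = 6), with overlapping ranges between all neighbours in that order. In peritoneal tumours Loxl3 (50.1 ± 7.06 TPM) and Loxl1 (48.3 ± 4.12 TPM) overlapped at the top, and Lox, Loxl4 and Loxl2 followed without overlap (SD, n = 5). In subcutaneous tumours the order was Loxl1 (71.9 ± 4.89 TPM), Loxl3 (51.3 ± 4.33 TPM), Lox (41.2 ± 10.2 TPM), Loxl2 (17.7 ± 5.45 TPM) and Loxl4 (11.1 ± 0.61 TPM). There Loxl3 overlapped with Lox, and Loxl2 with Loxl4.

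**Figure D3:**
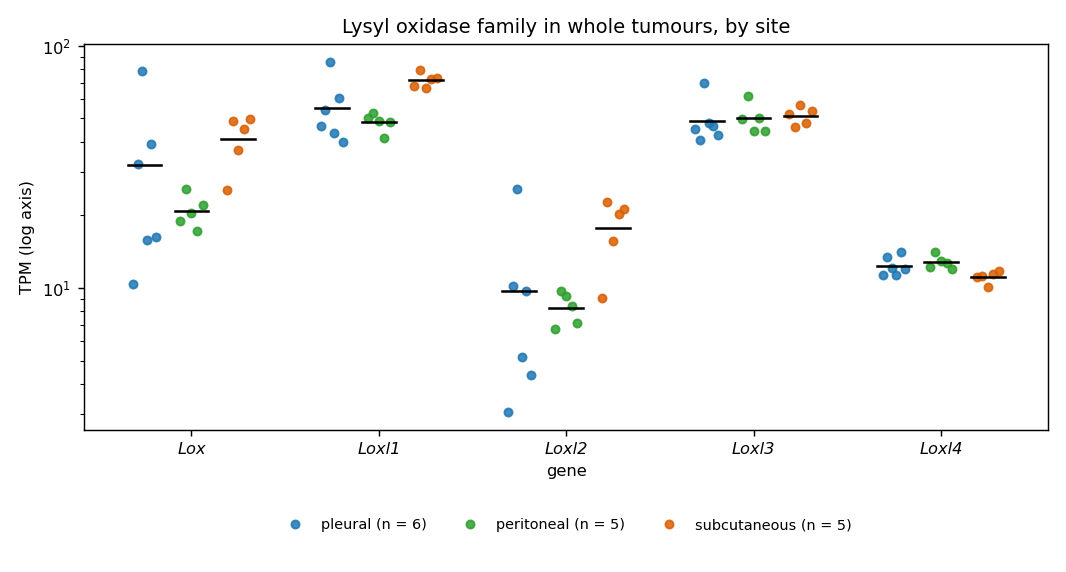
Levels of the 5 lysyl oxidase genes in whole tumours, in TPM on a log axis, with a point per library and a bar at each group mean, for pleural (n = 6), peritoneal (n = 5) and subcutaneous (n = 5) tumours from left to right. Pleural Lox and Loxl2 spread widely, up to 78.6 and 25.6 TPM in pleural replicate 3.

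Lox in pleural tumours had a lowest value of 10.4, a median of 24.3 and a highest value of 78.6 TPM. Peritoneal tumours had 18.9, 25.6, 20.3, 17.1 and 22.03 TPM, and subcutaneous tumours 25.3, 48.8, 37.1, 45.1 and 49.8 TPM. The pleural tumours spanned the whole range of both other sites, and a single peritoneal tumour, replicate 2, reached just above the lowest subcutaneous one. For Loxl2 the pleural lowest, median and highest values were 3.07, 7.42 and 25.6 TPM. The peritoneal values were 6.75, 9.74, 9.23, 8.38 and 7.13 TPM and the subcutaneous values 9.11, 22.6, 15.7, 20.1 and 21.0 TPM. Loxl2 followed the pattern of Lox, with the highest pleural value in replicate 3 and the lowest subcutaneous value in replicate 1.

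Loxl1 had pleural values from 40.02 over a median of 50.3 to 85.9 TPM. Its peritoneal values were 50.0, 52.7, 48.6, 41.5 and 48.5 TPM and its subcutaneous values 67.8, 79.0, 66.8, 72.5 and 73.6 TPM. Peritoneal and subcutaneous tumours did not overlap, and among pleural tumours replicate 3 alone lay above any subcutaneous one. Loxl3 ranged over 40.8 to 69.9 TPM in pleural, 44.4 to 61.7 TPM in peritoneal and 46.2 to 56.8 TPM in subcutaneous tumours. Loxl4 ranged over 11.3 to 14.0 TPM in pleural, 11.9 to 14.1 TPM in peritoneal and 10.1 to 11.7 TPM in subcutaneous tumours. For Loxl4 the peritoneal tumours lay above all subcutaneous ones, as a set of small differences.

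Of the 5 members, limma called 0 between pleural and subcutaneous whole tumours, where it called 12.8% of all genes tested. At an unadjusted p below 0.05 there were 3, namely Loxl1 (log2FC -0.42, SE 0.15, adjusted p = 0.0665), Loxl2 (log2FC -1.05, SE 0.37, adjusted p = 0.0732) and Loxl4 (log2FC 0.14, adjusted p = 0.159). Lox had a log2FC of -0.63 (SE 0.38, 95% interval -1.43 to 0.17, adjusted p = 0.272) and Loxl3 one of -0.09 (95% interval -0.34 to 0.16). The groups overlapped for all 5 members, while 7.76% of all genes had groups that did not. These calls depended on the scaling and limma settings, as given below, and on pleural replicate 3. Without it 3 of 5 were lower, with log2FC -0.95 for Lox (adjusted p = 0.042), -0.56 for Loxl1 (adjusted p = 0.00318) and -1.37 for Loxl2 (adjusted p = 0.00692). Calls over all 15054 genes tested rose as well without it, from 1927 to 2237.

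Between peritoneal and subcutaneous whole tumours 1 of 5 members was called, against 12.2% of all genes called and 3.64% called lower. Loxl1 fell by 0.57 (SE 0.15, 95% interval -0.89 to -0.25, adjusted p = 0.0265), to 48.3 ± 4.12 TPM in peritoneal tumours against 71.9 ± 4.89 TPM in subcutaneous tumours (SD, n = 5 each). Lox had a log2FC of -0.93 (SE 0.40, adjusted p = 0.126), Loxl2 of -0.97 (SE 0.39, adjusted p = 0.108), Loxl3 of -0.04 (adjusted p = 0.861) and Loxl4 of 0.18 (adjusted p = 0.0804). The groups of 2 members, Loxl1 (lower) and Loxl4 (higher), did not overlap, against 12.5% of all genes. The Loxl1 call was lost without subcutaneous replicate 2 (adjusted p = 0.0667) or without subcutaneous replicate 5 (adjusted p = 0.0532). Without pleural replicate 3, whose tumour enters only through the shared estimate of the spread, Lox (adjusted p = 0.046) and Loxl2 (adjusted p = 0.0334) were called as well. Calls over all genes rose in that fit too, from 1831 to 2183.

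Between pleural and peritoneal whole tumours 0 of 5 members were called by limma, 0 at an unadjusted p below 0.05, and 0.0531% of all genes were called. The 95% intervals ran from -0.51 to 1.10 for Lox, -0.16 to 0.46 for Loxl1, -0.87 to 0.71 for Loxl2, -0.30 to 0.20 for Loxl3 and -0.18 to 0.09 for Loxl4. The estimate for Lox was 0.30 and turned to -0.02 without pleural replicate 3.

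Summed over the 5 genes, the family held 93.6 ± 10.96 TPM in pleural, 91.4 ± 14.8 TPM in peritoneal and 127 ± 25.8 TPM in subcutaneous sorted cells (SD, n = 5 each). Lox contributed 2.58 ± 1.35% of the sum in pleural, 1.87 ± 1.08% in peritoneal and 11.9 ± 2.31% in subcutaneous cells, and Loxl2 contributed 0.716 ± 0.354%, 0.709 ± 0.573% and 5.45 ± 1.27% in the same order of sites. Loxl3 made up 49.3 ± 3.25% in pleural, 57.6 ± 6.16% in peritoneal and 44.2 ± 3.07% in subcutaneous cells. Because these are shares of 1 sum, a lower share of some members raises that of the others. In whole tumours the sum was 158 ± 60.0 TPM in pleural (n = 6), 140 ± 13.5 TPM in peritoneal and 193 ± 18.1 TPM in subcutaneous tumours (n = 5 each), and Lox held 18.2 ± 7.50%, 14.8 ± 1.35% and 21.1 ± 3.58% of it at the same sites. The ratio of Loxl2 to Lox TPM averaged 0.300 ± 0.088 in pleural, 0.340 ± 0.10 in peritoneal and 0.455 ± 0.045 in subcutaneous sorted cells, against 0.297 ± 0.032, 0.401 ± 0.069 and 0.423 ± 0.039 in whole tumours of those sites.

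**Figure D4:**
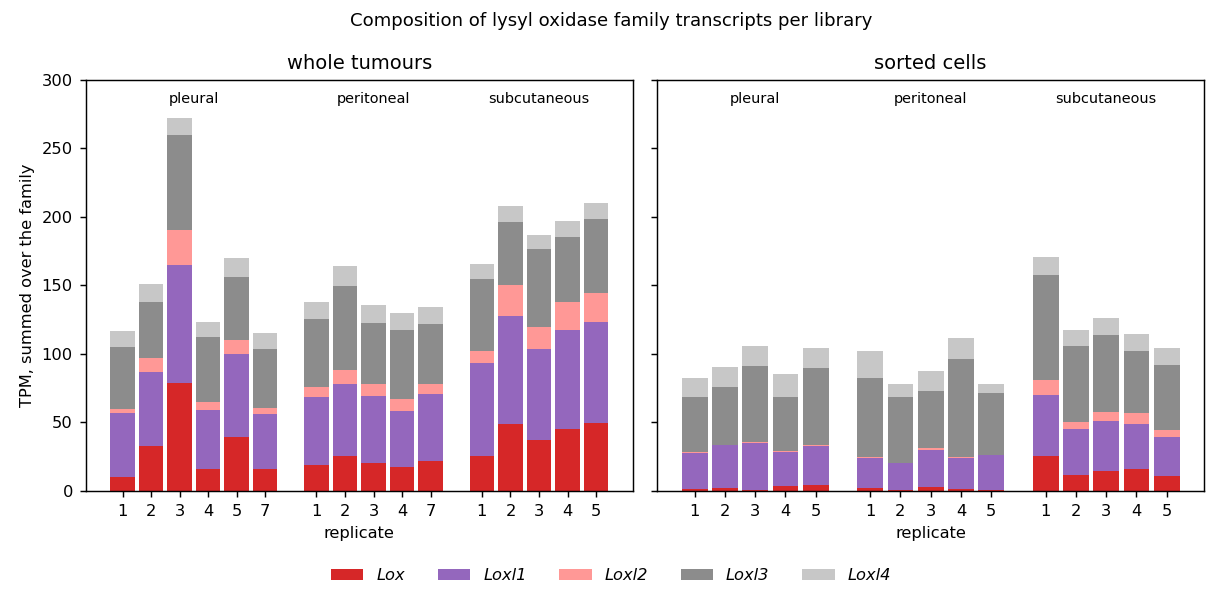
Summed TPM of the 5 lysyl oxidase genes in each library of whole tumours (left) and sorted cells (right), stacked by gene, with pleural, peritoneal and subcutaneous libraries from left to right. In sorted cells the Lox and Loxl2 segments are thin in pleural and peritoneal libraries; among whole tumours pleural replicate 3 has the highest sum, 272 TPM.

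Lox and Loxl2 varied together across libraries. Pearson's r of log2(TPM + 1) was 0.95 over the 16 whole tumours and 0.98 over the 15 sorted libraries. After subtraction of each site's mean it was 0.97 and 0.91 in the same order. Loxl3 and Loxl4 gave r = -0.07 with each other over whole tumours and 0.11 over sorted cells. All these values share libraries, scaling and, unless site means were removed, the differences between sites, and they are given as a description. By the same measure, the 3 tested genes most like Lox in sorted cells were the chemokine Cxcl12 (0.99), the G protein subunit Gng11 (0.99) and the matrix metalloproteinase Mmp2 (0.99). Those most like Loxl2 were the heparan sulfatase Sulf1 (0.995), the procollagen N-protease Adamts2 (0.99) and Mmp2 (0.99). Those most like Loxl1 were the protease receptor F2rl1 (0.91), the fibulin Fbln2 (0.87) and the collagen-binding protein Sparc (0.87). Loxl3 was most like Hyal2 (0.86), Fancg (0.86) and C1qtnf6 (0.86), and Loxl4 most like Sipa1l1 (0.95), Cand1 (0.94) and Tle3 (0.94).

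In whole tumours the genes most like Lox were Lrrc32 (0.96), Sparc (0.95) and Tcf7l1 (0.95). For Loxl1 they were the prolyl hydroxylase subunit P4ha3 (0.97), Adamts2 (0.96) and Mmp2 (0.96), and for Loxl2 they were Medag (0.97), the laminin chain Lama4 (0.97) and Creb3l1 (0.95). Loxl3 reached no more than 0.87, with Tspan11, and Loxl4 no more than 0.88, with the chloride transporter gene Clcn5. The collagen chain Col1a1 ranked 5th for Lox (r = 0.94), 12th for Loxl1 (0.94) and 15th for Loxl2 (0.92) among tested genes in whole tumours, and 641st for Loxl3 (0.50).

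The substrates and partners of the family were taken from lists by role. Fibrillar collagens are the main substrate. In pleural against subcutaneous sorted cells 2 of 7 tested fell and 0 rose (median log2FC -0.43, against -0.02 over all genes). Those were Col1a1, at 217 ± 20.1 TPM in pleural cells against 389 ± 96.8 TPM in subcutaneous cells (adjusted p = 0.00714), and Col5a3, a minor fibrillar chain (log2FC -1.04, adjusted p = 0.0151). In peritoneal against subcutaneous sorted cells 5 of 7 fell and 0 rose (median -0.58, against -0.03 over all genes), among them Col5a3 (log2FC -1.58), Col1a1 (-0.91) and Col5a2 (-0.78). Without subcutaneous sorted replicates 1 and 2 these counts were 1 (Col1a1) and 2 (Col1a1 and Col5a3), so that the calls of Col5a3 in pleural and Col5a2 in peritoneal cells were lost. This and the other counts of list genes without libraries were chosen after seeing the data. In whole tumours Col5a3 was lower at both sites, with 14.8 ± 2.59 TPM in pleural (n = 6), 15.1 ± 5.24 TPM in peritoneal and 45.8 ± 11.01 TPM in subcutaneous tumours (n = 5 each; adjusted p = 0.000215 and 0.000256 against subcutaneous).

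Of the 15 elastic fibre and microfibril genes tested in sorted cells, 3 fell and 0 rose in pleural and 5 fell and 1 rose in peritoneal against subcutaneous cells. Without subcutaneous replicates 1 and 2, 2 fell in pleural cells, and 3 fell and 1 rose in peritoneal cells. Among the genes that fell, Fbln1 reached 1 TPM in 1 library outside the subcutaneous group, so it passed the filter through that group, which favours a difference. Mfap5, a microfibril glycoprotein, fell to 28.7 ± 3.94 TPM in pleural and 35.6 ± 2.75 TPM in peritoneal cells, against 88.3 ± 21.2 TPM in subcutaneous cells (log2FC -1.57 and -1.26). Elastin itself, Eln, fell in peritoneal cells (log2FC -1.35, adjusted p = 0.0223), a call lost without subcutaneous replicates 1 and 2, and had a log2FC of -0.58 in pleural cells (adjusted p = 0.603). Efemp1, encoding fibulin 3, rose in peritoneal cells (log2FC 0.48, adjusted p = 0.000988). Over whole tumours 0 rose and 1 of 15 fell at the pleural site, and 1 rose and 1 fell at the peritoneal site. Without pleural whole tumour replicates 3 and 5 these counts were 0 higher and 2 lower at the pleural and 2 higher and 4 lower at the peritoneal site. Mfap5 was the gene that fell at both sites (log2FC -0.97 in pleural and -0.78 in peritoneal tumours), and Eln was called at neither (adjusted p = 0.179 and 0.922).

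Of 10 tested proteins that bind or assemble fibrils, 4 fell in pleural and 6 in peritoneal against subcutaneous sorted cells, and 0 rose. Without subcutaneous replicates 1 and 2 the counts were 2 and 5. The largest differences in this list were in periostin and tenascin C. Postn, whose product binds collagen and Bmp1, measured 1.43 ± 1.03 TPM in pleural, 1.10 ± 1.15 TPM in peritoneal and 92.2 ± 37.1 TPM in subcutaneous cells (log2FC -5.29 and -5.54; adjusted p = 4.51e-07 and 1.92e-07). Of the other 10 sorted libraries 3 reached 1 TPM of Postn, so it passed the filter through the subcutaneous libraries, which favours a difference. Tnc measured 1.09 ± 0.557, 0.967 ± 0.812 and 56.9 ± 22.02 TPM at the same sites (log2FC -4.77 and -4.91). The proteoglycan Bgn also fell, by 0.76 in pleural and by 0.90 in peritoneal cells, and the pleural call was lost without subcutaneous replicates 1 and 2. In whole tumours Postn and Tnc were lower in both comparisons (log2FC -3.78 and -4.59 in pleural, -3.97 and -4.01 in peritoneal tumours), while fibronectin, Fn1, was higher (log2FC 0.41 and 0.43). With Fn1 as the 1 gene that rose, 2 of 10 fell in pleural whole tumours and 6 fell without pleural replicates 3 and 5.

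The enzymes that act on procollagen before crosslinking did not form one pattern. Of 11 prolyl hydroxylation and folding genes 1 was called against subcutaneous sorted cells, P4ha3 (log2FC -0.74 in pleural and -0.92 in peritoneal cells), and in pleural cells it was not called without subcutaneous replicates 1 and 2. In whole tumours P4ha3 was also lower in pleural and peritoneal tumours (log2FC -0.77 and -0.98). P4ha1 was higher there (log2FC 0.80 in pleural and 0.52 in peritoneal tumours). Between pleural and peritoneal sorted cells P4ha1 (log2FC 0.44, adjusted p = 0.0284) and the lysyl hydroxylase Plod2 (log2FC 0.78, adjusted p = 0.0128) were higher in pleural cells, by limma. Lysyl hydroxylases set which crosslinks can form. Of their list's 5 tested genes, limma called 0 in pleural or peritoneal against subcutaneous sorted cells (1 and 0 at an unadjusted p below 0.05). In whole tumours Plod2 rose to 49.1 ± 11.5 TPM in pleural (n = 6) and 39.0 ± 6.83 TPM in peritoneal tumours, against 21.2 ± 2.38 TPM in subcutaneous tumours (n = 5 each; adjusted p = 0.000225 and 0.00331). Plod1 rose in pleural tumours (log2FC 0.48, adjusted p = 0.0237).

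Of 5 procollagen processing genes tested in sorted cells, 1 rose and 1 fell in pleural and 2 rose and 1 fell in peritoneal against subcutaneous cells. Adamts2, a procollagen N-protease, measured 0.294 ± 0.18 TPM in pleural, 0.312 ± 0.325 TPM in peritoneal and 6.54 ± 3.18 TPM in subcutaneous cells (log2FC -2.47 for both; adjusted p = 1.07e-05 and 6.4e-06). It reached 1 TPM in 0 pleural, 0 peritoneal and 5 subcutaneous libraries, so it passed the filter through the subcutaneous group, which favours a difference. Its relative Adamts14 was higher, at 6.42 ± 1.24 TPM in pleural and 6.50 ± 1.22 TPM in peritoneal cells against 3.39 ± 0.221 TPM in subcutaneous cells (adjusted p = 0.00864 and 0.00321), and in pleural cells it was not called without subcutaneous replicates 1 and 2. Bmp1, which activates Lox, had log2FC -0.25 in pleural and -0.25 in peritoneal cells (adjusted p = 0.627 and 0.297), and its enhancer Pcolce rose in peritoneal cells (log2FC 0.40, adjusted p = 0.00196).

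Copper is loaded onto lysyl oxidases in the secretory pathway, where Atp7a supplies it. Atp7a had log2FC -0.04 in pleural (adjusted p = 0.991) and -0.76 in peritoneal against subcutaneous sorted cells (adjusted p = 0.116). Of 7 copper supply genes tested, 0 were called in pleural cells (1 at an unadjusted p below 0.05). In peritoneal cells 2 fell, the copper importer Slc31a1 (log2FC -0.32) and the reductase Steap3 (log2FC -0.52), and 0 without subcutaneous replicates 1 and 2. In whole tumours 1 of 8 fell at each site, the chaperone Atox1 (log2FC -0.23 in pleural and -0.19 in peritoneal tumours). The transglutaminase Tgm2, which crosslinks matrix by another chemistry, had log2FC -0.58 in pleural and -0.32 in peritoneal sorted cells (adjusted p = 0.548 and 0.534).

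Lox and Loxl2 are known targets of hypoxia signalling, and lysyl oxidases are also known to be induced by TGF-beta. In whole tumours 12 of 15 hypoxia genes were higher and 0 lower in pleural against subcutaneous tumours (median log2FC 0.80, against 0.07 over all genes). In peritoneal tumours 4 rose and 0 fell (median log2FC 0.61, against 0.07 over all genes), and limma had 10 higher at an unadjusted p below 0.05. Over all genes, 12.8% were called in the pleural and 12.2% in the peritoneal comparison, in either direction. Car9, a carbonic anhydrase, rose in sorted cells at both sites, to 109 ± 28.1 TPM in pleural and 67.1 ± 24.2 TPM in peritoneal cells against 23.0 ± 6.14 TPM in subcutaneous cells (log2FC 2.20 and 1.47; adjusted p = 5.67e-05 and 0.00155). It was the only hypoxia gene of 13 called in pleural sorted cells (median log2FC 0.39). In peritoneal sorted cells 1 rose and 2 fell, Pfkfb3 (log2FC -0.86) and Ddit4 (log2FC -0.95), with 11 of 13 below 0 and a median of -0.28; Pfkfb3 passed the filter through the subcutaneous libraries, and its call was lost without replicates 1 and 2 of them. Of 8 genes for TGF-beta ligands and targets, 1 rose in pleural sorted cells (Ccn2, log2FC 1.81; 0 rose without subcutaneous replicates 1 and 2) and 4 fell in peritoneal ones, among them Smad7, Skil and Tgfb1 (log2FC -1.76, -1.73 and -0.50). Between pleural and peritoneal sorted cells Ccn2, Smad7 and Skil were higher in pleural cells (log2FC 1.76, 1.71 and 1.74). In that comparison limma called 0 lysyl oxidases. Lox had a log2FC of 0.30 there (SE 0.30) and Loxl2 one of 0.04 (SE 0.23). The part of hypoxia and TGF-beta signalling in the levels of the lysyl oxidases was not tested.

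**Figure D5:**
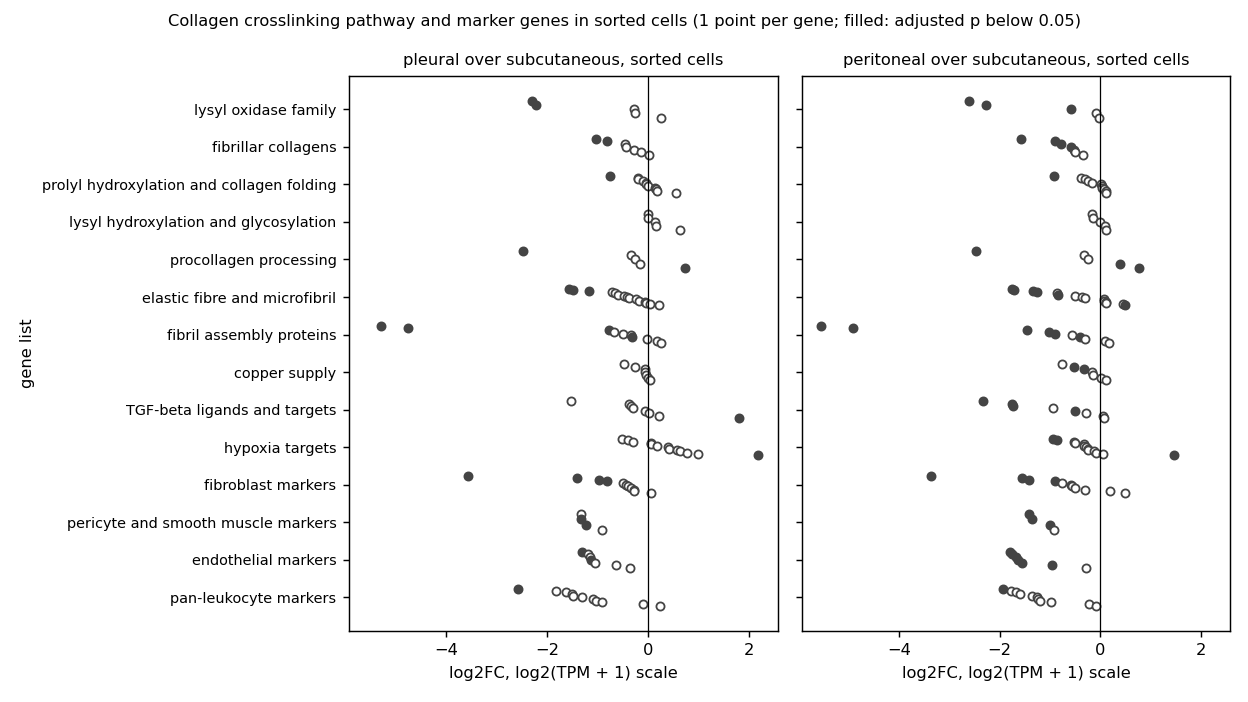
Log2FC on the log2(TPM + 1) scale for genes of the lysyl oxidase family, its partners and marker lists in sorted cells, pleural (left) and peritoneal (right) over subcutaneous; a point is a gene, and filled points passed an adjusted p below 0.05. Postn and Tnc lie farthest to the left, at -5.29 and -4.77 in pleural cells, and Lox and Loxl2 lie beyond -2.

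Some markers of stromal cell types were also lower in pleural and peritoneal than in subcutaneous sorted cells, while others were not called. The fibroblast list shares its collagen genes with the lists above. Of its 11 tested markers, 4 fell in pleural and 5 in peritoneal against subcutaneous cells, and 0 rose, where 1.25% and 6.33% of all genes were called lower. Both counts include Pi16, which passed the filter through the subcutaneous libraries, and this favours a difference. Of the 10 markers that passed without those libraries, 3 fell in pleural and 4 in peritoneal cells. The summed level of the 11 markers was 3244 to 4196 TPM in pleural, 2617 to 4462 TPM in peritoneal and 3654 to 6283 TPM in subcutaneous cells, and Fap had no entry in the sorted table. The fibroblast surface gene Thy1 measured 2.74 ± 0.61 TPM in pleural, 4.11 ± 3.37 TPM in peritoneal and 45.8 ± 19.3 TPM in subcutaneous cells (log2FC -3.57 and -3.35). Pdgfra measured 9.90 ± 2.69, 7.12 ± 3.13 and 12.2 ± 3.58 TPM at the same sites and was called in neither comparison. Col3a1, Dcn, Lum, Ly6c1 and Islr were not called either. Of 4 pericyte and smooth muscle markers with an entry, out of 10 on the list, 2 fell in pleural and 3 in peritoneal cells. Their sum was 8.28 to 17.1 TPM in pleural, 5.11 to 17.7 TPM in peritoneal and 24.5 to 38.2 TPM in subcutaneous cells, and Rgs5, Cspg4, Myh11, Cnn1, Kcnj8 and Notch3 had no entry.

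Of 7 endothelial markers with an entry, out of 12, 2 fell in pleural and 6 in peritoneal cells, and 0 rose, with sums of 7.86 to 31.04 TPM in pleural, 5.45 to 18.9 TPM in peritoneal and 30.9 to 47.3 TPM in subcutaneous cells, and Kdr, Tek, Vwf, Cldn5 and Robo4 had no entry. None of the stromal and leukocyte markers with an entry was at 0 in all libraries of a site. The 12 leukocyte markers summed to 127 to 184 TPM in pleural, 138 to 182 TPM in peritoneal and 133 to 704 TPM in subcutaneous cells. Of the 11 tested, 1 fell at each site, Cd53, and limma called 0 of 8 macrophage markers (1 and 7 at an unadjusted p below 0.05). The part of other cell types in the differences of Lox and Loxl2 was not tested. Without subcutaneous replicates 1 and 2 the calls were 3 and 4 for fibroblast, 0 and 2 for pericyte and 0 and 6 for endothelial markers, in pleural and peritoneal cells in that order. Pi16 was among these fibroblast calls at both sites. Within the peritoneal sorted group, replicates 1 and 3 had the highest Lox (2.19 and 3.18 TPM) and Loxl2 (1.02 and 1.39 TPM) and also the highest Thy1 (6.9 and 8.59 TPM). The pleural sorted group matched only in part. Its replicate 4 had the highest Loxl2 (1.10 TPM) and Thy1 (3.46 TPM). Replicate 5 had the highest Lox (4.04 TPM) with 2.91 TPM of Thy1, and replicate 1 the lowest Loxl2 (0.390 TPM) with 3.09 TPM of Thy1.

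Whole tumours showed part of the same marker pattern. Of 9 pericyte and smooth muscle markers tested against subcutaneous tumours, 0 were called in pleural tumours, and 0 fell and 1 rose (Tagln) in peritoneal tumours. With pleural replicates 3 and 5 left out, 2 of these markers fell in pleural tumours, and 3 fell and 2 rose in peritoneal tumours. Thy1 measured 72.4 ± 22.6 TPM in pleural (n = 6), 75.6 ± 11.5 TPM in peritoneal and 170.0 ± 19.5 TPM in subcutaneous tumours (n = 5 each; adjusted p = 0.000779 and 0.00183). Of 12 fibroblast markers, 2 fell (Fap and Thy1) and 1 rose (Islr) at each site, 6 and 5 fell without pleural replicates 3 and 5, and their sum was 3718 to 6480 TPM in pleural, 4145 to 6719 TPM in peritoneal and 5018 to 6782 TPM in subcutaneous tumours. Of 12 endothelial markers 3 fell in pleural and 1 fell in peritoneal tumours, where 12.8% and 12.2% of all genes were called in either direction. Without pleural replicates 3 and 5 the counts were 9 and 5. Calls over all genes also rose without pleural replicate 3, and their share without both replicates is not given here. Of 10 macrophage markers 3 fell in pleural and 6 in peritoneal tumours, and of 12 leukocyte markers 1 and 4 fell. Without pleural replicates 3 and 5, macrophage markers had 2 lower and 1 higher in pleural and 6 lower in peritoneal tumours, and 3 and 4 leukocyte markers were lower. Of 10 mesothelial markers 5 rose in pleural and 9 rose in peritoneal tumours. Skeletal muscle markers summed to 11.5 to 786 TPM in pleural, 14.6 to 17.6 TPM in peritoneal and 77.8 to 1416 TPM in subcutaneous tumours. Pleural replicate 3, the pleural tumour with the most Lox, Loxl1, Loxl2 and Loxl3, held the most Postn (75.1 TPM, against 5.03 to 21.6 TPM in the other pleural tumours) and 16.9 TPM of Acta1. The part of fibroblasts, leukocytes, endothelium and adjoining tissue in the values of whole tumours was not tested.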

How the data were processed

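RNA sequencing with 50-base single-end reads was quantified with kallisto on GRCm39, per the submitters' processing notes, and the authors deposited TPM (transcripts per 1000000) for whole tumours and for sorted cells in separate tables. The kallisto version is not given in the sources used here. In all, the sorted table lists 12461 entries, each at 1.257 TPM or more in some library, of which 17 had been turned into dates and were left out, and its libraries sum to 996124 to 998055. The whole tumour libraries sum to 1000000, so read depth is unknown. Genes at 1 TPM or more in at least 5 libraries of a table (15054 for whole tumours, 12357 for sorted cells) were tested with limma (version 3.58.1, R 4.3.3, trend option) after a log2 transform with a pseudocount of 1 TPM, the 3 sites in 1 fit per table and Benjamini-Hochberg adjustment over all genes, and the scripts were tested on simulated data. The libraries of 1 table carry different mouse numbers, while 14 of 17 mice gave a library to each table, and p-values measure the spread between the samples of a table. Replicates are numbered by mouse, and the library names number 3 peritoneal whole tumours otherwise. Comparisons with subcutaneous samples share them. The members, gene lists and tests were chosen with earlier results of these data known. The genes named are the 5 members, up to 3 called genes of largest difference per list and comparison, a fixed set of matrix and marker genes, and the 3 genes most like each member. Thy1 and Postn in single libraries, and values of Acta1, were chosen after they were seen. Coordinates are from GENCODE on GRCm38, not the build used for quantification. Alternatives were another pseudocount, other filters and scalings, other limma settings, a replicate block and leaving out libraries. The values of 1 gene of the TGF-beta list are not reported here.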

Additional observations from a re-analysis of the deposited data

Results flagged for a closer look

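Each member was examined for a library far from the rest of its group, in 30 groups, a rule that chance meets in about 1 in 20 groups, and 3 groups met it. In pleural whole tumours replicate 3 was the highest for Loxl2, at 25.6 TPM with the next library at 10.2 TPM, and for Loxl3, at 69.9 TPM with the next at 47.8 TPM. In subcutaneous sorted cells replicate 2 was the lowest for Loxl4, at 11.3 TPM with the next library at 12.7 TPM.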

How the results depend on the processing

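Lox and Loxl2 in both comparisons of sorted cells with subcutaneous cells, and Loxl1 in the peritoneal one, were called under every alternative in which they were tested (adjusted p from 8.58e-06 to 0.0349 by limma). Lysyl oxidase genes called between pleural and subcutaneous sorted cells went to 1 with a filter of 5 TPM, which Loxl2 did not pass. For pleural against subcutaneous whole tumours, where 0 were called, median-of-ratios scaling gave 1, arrayWeights 2, leaving out pleural replicates 3 and 5 gave 3 and leaving out single libraries gave 0 to 3. For peritoneal against subcutaneous whole tumours, where 1 was called, no filter gave 0, arrayWeights 2, a fit of only those sites 3 and leaving out single libraries 0 to 3. The same replicate numbers did not pair the samples (correlations of deviations from -0.38 to 0.35, 3 of 15 and 4 of 14 above 0.1). The replicate block by mouse number gave 0 members in the peritoneal whole tumour comparison (Loxl1 -0.50, adjusted p = 0.083), and 849, 656 and 0 genes called of all tested in pleural and peritoneal against subcutaneous and pleural against peritoneal whole tumours, where the fit without it gave 1927, 1831 and 8. Because library names number 3 peritoneal whole tumours otherwise than mice, a replicate block by library names was added after seeing the data and gave 0 members (Loxl1 adjusted p = 0.0882) and 841, 709 and 0 genes, with 3 of 14 correlations above 0.1. No filter gave 1136 and 1164 in the comparisons with subcutaneous tumours, and leaving out single libraries gave 785 to 2237, 934 to 2183 and 0 to 33, with the first 2 lowest without subcutaneous replicate 2 and all 3 highest without pleural replicate 3. The 8 genes between pleural and peritoneal tumours became 0 with a pseudocount of 0.1 or a filter of 5 TPM, 4 with median-of-ratios scaling, 5 with robust empirical Bayes and 21 without pleural replicates 3 and 5. The 203 genes of pleural against subcutaneous sorted cells became 107 with a filter of 5 TPM, 406 with arrayWeights and 106 without subcutaneous replicates 1 and 2. The 1369 of peritoneal against subcutaneous sorted cells became 2503 with quantile normalization and 758 (without peritoneal replicate 2) to 1606 without single libraries, and the 1231 of pleural against peritoneal sorted cells became 1932 with median-of-ratios scaling, 2206 with quantile normalization, 691 with only those sites and 525 (without pleural replicate 4) to 1421 without single libraries. Scaling moved the share of calls that were higher from 73.4% to 41.4% (median-of-ratios) and 46.8% (quantile) for pleural, and from 70.1% to 42.4% and 47.3% for peritoneal against subcutaneous whole tumours. In sorted cells quantile normalization moved it from 24.1% to 40.1% for pleural and from 42.9% to 61.6% for peritoneal against subcutaneous cells, and median-of-ratios scaling from 44.7% to 55.1% between pleural and peritoneal cells. Signs turned in uncalled values alone. Between pleural and peritoneal whole tumours, leaving out pleural replicates 3 and 5 gave -0.25 for Lox and -0.07 for Loxl1, and leaving out single libraries gave -0.020 to 0.54 for Lox, -0.40 to 0.14 for Loxl2 and -0.16 to 0.025 for Loxl3. Loxl3 in peritoneal against subcutaneous whole tumours ranged from -0.12 to 0.0006. In peritoneal against subcutaneous sorted cells Loxl4 was 0.012 with median-of-ratios scaling, 0.093 with quantile normalization, 0.24 with arrayWeights and -0.17 to 0.17 without single libraries, and Loxl3 was 0.079 without subcutaneous replicates 1 and 2 and -0.20 to 0.033 without single libraries. Between pleural and peritoneal sorted cells Loxl2 was -0.0066 with quantile normalization, -0.15 with arrayWeights and -0.065 to 0.18 without single libraries, and Loxl4 was -0.0002 with arrayWeights. The cause of these changes was not tested.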
